A study of Mus musculus with 10 samples.

Results

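The response of SMB56 medulloblastoma cells to THZ1 was described from 4 RNA sequencing libraries, 2 from cells given DMSO and 2 from cells given 0.1 µM THZ1, each for 8 hours. SMB56 is a mouse line derived from a medulloblastoma that arose spontaneously in a Ptch+/- animal. Both groups are the parental line, both carry the Ptch+/- genotype, and both were grown as neurospheres at passages 10-15. THZ1 is a covalent inhibitor of the kinase CDK7, and DMSO is its solvent. The genes are all 10007 of the table the authors deposited for this experiment, of 13976 in any of the series' 3 tables, and the libraries are 4 of 10. The table was preselected: all but 8 of its genes have an adjusted p-value under 0.05 in the authors' deposited table. One line is a limited model of a tumour, and the labels do not say that the numbered libraries came from separate cultures. The p-values therefore speak only of how far these 4 libraries spread, and that spread may be technical.

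CDK7 is the catalytic subunit of the CDK-activating kinase, which works both inside the general transcription factor TFIIH and on its own. Within TFIIH it phosphorylates the tail of the largest RNA polymerase II subunit as transcription starts, and outside it activates the kinases of the cell cycle and P-TEFb, the kinase that releases paused polymerase. Hedgehog-type medulloblastoma arises from cerebellar granule neuron progenitors, in which loss of the receptor PTCH1 frees SMO to activate the GLI transcription factors.

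Total counts in the table were 10614268 to 13170421 per library. Of its genes, 9863 passed a filter on low counts and were tested with edgeR's quasi-likelihood test, and 9813 of them (99.5%) passed a Benjamini-Hochberg adjusted p of 0.05. That share follows the preselection and is not a result about THZ1. Of the genes tested, 4373 (44.3%) were called higher with THZ1 and 5440 (55.2%) lower. At least 2-fold changes were called for 2511 genes higher (25.5%) and 2479 lower (25.1%). The balance depends on the scaling: 44.6% of calls were higher here, against 41.2% with library sizes alone and 54.7% with DESeq2. It was 30.8% with limma on log2(FPKM + 1). FPKM is scaled to gene length and depth, and the pseudocount of 1 shrinks the folds of low values. Values given below as on FPKM therefore differ by the pseudocount as well as by scaling, and the 2 parts were not separated. The median of all genes moved by 0.31 with RLE and by -0.36 with library sizes alone, and list medians given below moved by about as much. No spike-in was used, so every level and fold is relative to the other genes of the table. Among these genes the 2 libraries of a group lay close together, with a common biological coefficient of variation of 3.02%. In 9850 genes (99.9%) the groups did not overlap. The preselection used these same libraries and favours genes of small spread without overlap, so neither value is a result. Levels below are CPM, counts scaled to a common library total after TMM normalization, and folds are log2 values ± standard error (n = 2 libraries a group).

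The largest rises outnumbered the largest falls. At least 8-fold changes were called for 490 genes higher and 79 lower, and at least 16-fold changes for 186 higher and 19 lower. The median log2 fold over all genes tested was -0.31, and the middle 9 in 10 genes ran from -2.01 to 2.99. The direction moved with the level under DMSO. With the genes split by that level into 5 bins of equal size, the lowest bin ended at 6.23 CPM. In it 79.6% were called higher at least 2-fold and the median was 2.11. In the next bin, up to 26.5 CPM, the median was -0.83 and 40.7% were called lower at least 2-fold. In the top bin, above 118 CPM, the median was -0.10. Genes of low level had to change more to enter the table, and their part in this pattern cannot be told apart from THZ1.

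**Figure D1:**
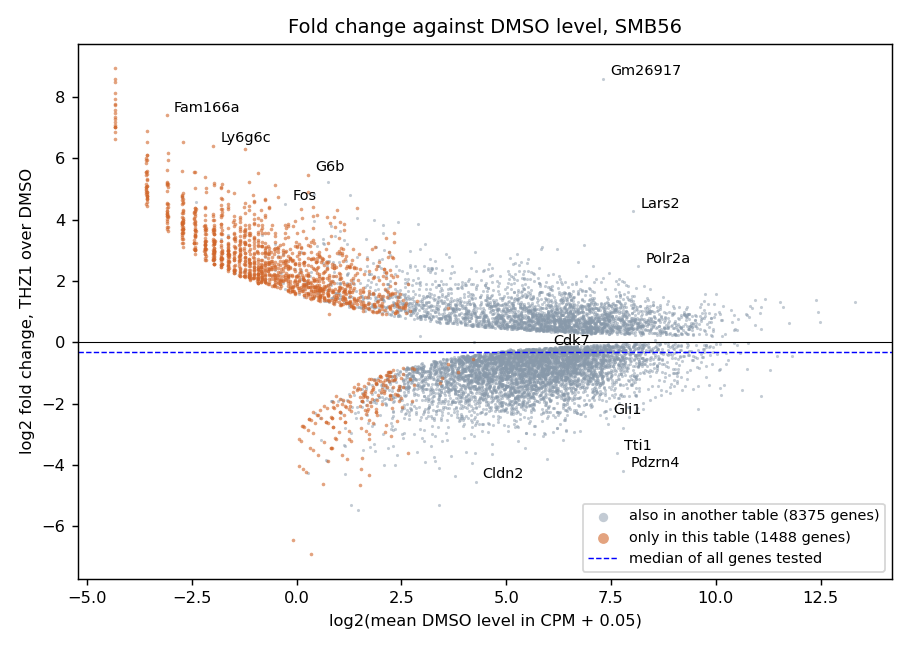
Each point is a gene, with its mean DMSO level (log2 of CPM plus a small constant) across and its log2 fold change, THZ1 over DMSO, upwards. Genes in the lowest of 5 bins by DMSO level had a median fold of 2.11 and those in the next bin -0.83, and the band around 0 holds few genes because the table was preselected.

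The target of the inhibitor was little changed in its own mRNA. Cdk7 stood at 62.4 and 61.6 CPM with DMSO and at 56.2 and 51.4 CPM with THZ1. Both THZ1 libraries were lower, a log2 fold of -0.20 ± 0.07 (edgeR adjusted p = 0.0068, n = 2). The sign of that small difference turned with RLE or DESeq2 scaling (0.10 in each), and the call was lost without THZ1 replicate 2 (-0.13, adjusted p = 0.11). THZ1 acts on the protein, so this mRNA does not check the labels. Of 7 genes of CDK7 and TFIIH tested, 2 rose and 5 fell, with a median of -0.37 against -0.31 over all genes. Gtf2h2, a TFIIH core subunit, fell by 1.06 on the log2 scale, and Ercc3, its XPB helicase, rose by 0.66, a call that was lost on FPKM (0.13, limma adjusted p = 0.14).

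Genes of RNA polymerase II and of elongation changed in both directions, with Polr2a and Hexim1 far above their DMSO levels. Polr2a, the largest polymerase II subunit and the one that carries the tail, was at 284 and 283 CPM with DMSO and at 1481 and 1683 CPM with THZ1. Both THZ1 libraries lay far above both DMSO libraries, a log2 fold of 2.48 ± 0.06 (edgeR adjusted p = 8.8e-19, n = 2). Of 9 subunits tested, Polr2a included, 3 rose and 6 fell, with a median of -0.95. Polr2j fell by 1.35 on the log2 scale, and Polr2d rose by 0.78.

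Hexim1, which holds P-TEFb inactive in the 7SK particle, was at 57.7 and 55.7 CPM with DMSO and at 483 and 458 CPM with THZ1. The groups were far apart, with a log2 fold of 3.05 ± 0.05 (edgeR adjusted p = 4.4e-21, n = 2). Of 21 genes of P-TEFb, CDK12, CDK13 and elongation, 13 rose, 7 fell and 1 was not called, with a median of 0.64 that was 0.01 on FPKM. Supt5, a subunit of the pausing and elongation factor DSIF, rose by 1.55, while Nelfe, a subunit of the pausing factor NELF, fell by 2.10 on the log2 scale. Of 22 Mediator subunits, 8 rose and 14 fell, with a median of -0.42. Over all genes tested 44.3% were called higher and 55.2% lower, with a median of -0.31. Med13, which belongs to the kinase module, rose by 1.15 and Med9, of the middle module, fell by 2.44 on the log2 scale.

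The regions upstream of 6 genes are shown because these genes are among the ones with large changes on which the account rests, 3 that rose (Fos, Polr2a and Hexim1) and 3 that fell (Tti1, Rfc4 and Mcm10). Each is the 250 bases before the RefSeq start (GRCm38.p6), 5′ to 3′ on the gene's strand. Capitals mark matches, on either strand, to TATAAA (the TATA box), CCAAT (the CCAAT box), GGGCGG (a GC box of SP and KLF factors), CCGGAAG (an ETS site), CACGTG (an E-box), TGACGTC (a cAMP response element), TGANTCA (an AP-1 site) or AAGATGG (a YY1 site).
Fos (chr12:85473640-85473889, plus strand): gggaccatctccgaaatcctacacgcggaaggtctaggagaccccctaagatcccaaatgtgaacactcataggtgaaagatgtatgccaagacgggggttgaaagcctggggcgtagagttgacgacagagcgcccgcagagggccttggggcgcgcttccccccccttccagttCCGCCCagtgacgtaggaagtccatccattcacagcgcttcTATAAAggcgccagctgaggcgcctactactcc
Polr2a (chr11:69758634-69758883, minus strand): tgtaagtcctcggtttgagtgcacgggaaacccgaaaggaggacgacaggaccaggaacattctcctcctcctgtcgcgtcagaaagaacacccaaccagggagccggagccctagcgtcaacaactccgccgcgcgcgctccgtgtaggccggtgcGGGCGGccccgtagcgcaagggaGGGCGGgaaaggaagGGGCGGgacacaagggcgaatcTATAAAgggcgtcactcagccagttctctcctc
Hexim1 (chr11:103116075-103116324, plus strand): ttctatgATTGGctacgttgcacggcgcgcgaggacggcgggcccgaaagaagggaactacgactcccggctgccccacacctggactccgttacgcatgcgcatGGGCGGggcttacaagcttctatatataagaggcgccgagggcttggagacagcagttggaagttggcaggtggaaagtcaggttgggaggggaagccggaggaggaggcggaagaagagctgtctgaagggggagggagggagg
Tti1 (chr2:158028435-158028684, minus strand): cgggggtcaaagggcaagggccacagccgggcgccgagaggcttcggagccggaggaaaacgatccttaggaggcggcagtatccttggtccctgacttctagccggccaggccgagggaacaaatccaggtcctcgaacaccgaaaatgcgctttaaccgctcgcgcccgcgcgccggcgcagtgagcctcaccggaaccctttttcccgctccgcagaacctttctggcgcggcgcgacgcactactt
Rfc4 (chr16:23127731-23127980, minus strand): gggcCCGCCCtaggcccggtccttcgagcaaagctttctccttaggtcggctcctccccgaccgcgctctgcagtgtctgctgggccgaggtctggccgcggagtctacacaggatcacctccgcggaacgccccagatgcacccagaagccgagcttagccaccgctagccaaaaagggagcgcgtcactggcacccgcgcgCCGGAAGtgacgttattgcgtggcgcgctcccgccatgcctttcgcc
Mcm10 (chr2:5012792-5013041, minus strand): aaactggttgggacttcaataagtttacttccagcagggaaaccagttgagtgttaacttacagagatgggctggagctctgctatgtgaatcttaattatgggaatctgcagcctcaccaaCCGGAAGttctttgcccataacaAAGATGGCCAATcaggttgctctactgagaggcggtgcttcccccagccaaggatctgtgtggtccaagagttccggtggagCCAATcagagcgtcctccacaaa
Fos and Polr2a each hold TATAAA, beginning 33 bases before the start, a word found in 13% of 27025 mouse windows of this length. GGGCGG, found in 32.9% of windows, is in Fos, Polr2a, Hexim1 and Rfc4, with 3 copies in Polr2a. CCGGAAG (7.05% of windows) is in Rfc4 and Mcm10, and CCAAT (34.5%) is in Hexim1 and Mcm10. In Mcm10 one CCAAT directly follows AAGATGG, which is in 4.53% of windows. CACGTG (6.05%), TGACGTC (2.88%) and TGANTCA (6.87%) are in none of the 6, and the Tti1 window holds no match. These are matches of letters in chosen genes, and no comparison of promoters between groups of genes is reported here.

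Immediate early genes, which are switched on within minutes by many stimuli, rose together. Of 23 AP-1 and immediate early genes on the list, 16 were tested. All 16 were called higher, 14 of them at least 2-fold, with a median log2 fold of 1.95 (0.95 on FPKM). Many, such as Fos, Junb and Egr1, had DMSO levels within the lowest of the 5 bins, up to 6.23 CPM. In that bin 79.6% of genes were called higher at least 2-fold, and the median was 2.11. For those members the rise cannot be told apart from the preselection at low levels. Fos was at 0.555 and 1.00 CPM with DMSO and at 17.7 and 18.5 CPM with THZ1. Both THZ1 libraries were high and both DMSO libraries near the lowest levels of the table (4.51 ± 0.22, edgeR adjusted p = 8.1e-14, n = 2). Junb, another AP-1 subunit, rose by 3.83. Feedback inhibitors of MAP kinase signalling rose in 8 of 9 cases (median 1.12, but 0.24 on FPKM), among them Errfi1 (2.06), a brake on the EGF receptor, and Dusp8 (1.57), a phosphatase. Spred2, an inhibitor of RAS to RAF signalling, was the one that fell, by 1.12 on the log2 scale. The share called higher over all genes tested was 44.3%.

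Regulators of mRNA decay rose in 13 of 19 cases and fell in 6. Their median was 0.63, but -0.15 on FPKM. For this and the next 2 lists, the shares over all genes tested were 44.3% higher and 55.2% lower (median -0.31). Tob1, which brings the deadenylase to mRNAs, was at 114 and 117 CPM with DMSO and at 1036 and 1033 CPM with THZ1. The THZ1 libraries were about equal and well above both DMSO libraries (3.17 ± 0.05, edgeR adjusted p = 2.8e-21, n = 2). Zfp36, which binds AU-rich elements, rose by 3.56. Cnot1, the scaffold of the CCR4-NOT deadenylase, and Dcp1b, a decapping factor, fell by 1.42 and 2.54 on the log2 scale. Kruppel-like factors rose in 6 of 8 cases (median 0.82, but 0.22 on FPKM), with Klf6 at 1.86 and Klf9 at -0.86. Of 10 MYC, MAX and MXD genes 5 rose and 5 fell, near the shares over all genes. The list median of 0.29 turned negative with library sizes alone (-0.07) and on FPKM (-0.19). Mxd1, a MYC antagonist, rose by 2.2, and Mxd3 fell by 1.58 on the log2 scale. Myc itself was at 40.2 and 40.0 CPM with DMSO and at 91.5 and 97.4 CPM with THZ1, a rise of 1.24 ± 0.06 (edgeR adjusted p = 1.8e-13, n = 2).

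The Hedgehog pathway did not move one way. Gli1, a GLI factor and itself a target of the pathway, was at 168 and 164 CPM with DMSO and at 29.0 and 30.9 CPM with THZ1. Both THZ1 libraries were low, a log2 fold of -2.48 ± 0.06 (edgeR adjusted p = 2.3e-18, n = 2). Gli2, the main GLI activator in mouse development, was at 86.7 and 83.4 CPM with DMSO and at 23.3 and 24.0 CPM with THZ1, and fell by 1.85 on the log2 scale. Ptch1, the receptor and also a target, was at 214 and 209 CPM with DMSO and at 292 and 307 CPM with THZ1. It was higher in both THZ1 libraries (0.50 ± 0.04, edgeR adjusted p = 7.2e-10, n = 2), but on FPKM it was lower, at -0.37. Sufu, which restrains the GLI factors, was at 72.4 and 68 CPM with DMSO and at 127 and 134 CPM with THZ1, a rise of 0.90. Over the lists, 4 of 12 components rose and 8 fell (median -0.86), and 4 of 11 targets rose and 7 fell (median -0.48). Over all genes tested 44.3% were called higher and 55.2% lower (median -0.31). Among genes in all 3 tables these were 35.3% and 64% (median -0.48). The counts of both lists are near the latter shares and are no result about the pathway. Smo, Ccnd1 and Mcl1 are not in this table and were not analysed here.

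Factors that mark granule neuron progenitors went both ways. Atoh1, which keeps these progenitors dividing and is on the list of Hedgehog targets, was at 409 CPM in both DMSO libraries and at 904 and 930 CPM with THZ1 (1.16 ± 0.05, edgeR adjusted p = 1.6e-15, n = 2). Mycn, the MYC family member of these progenitors, was at 353 and 352 CPM with DMSO and at 570 and 615 CPM with THZ1. Both genes were higher in both THZ1 libraries, with Mycn at 0.75 ± 0.05. Of 16 granule lineage factors 10 rose, 7 of them at least 2-fold, and 6 fell. Their median was 0.74, but 0.38 with library sizes alone and 0.14 on FPKM. The shares over all genes tested were 44.3% higher, 25.5% at least 2-fold, and 55.2% lower. Zic4 rose by 1.77, while Neurod6 and Barhl2 fell by 1.87 and 1.29 on the log2 scale. Of the progenitor markers reported here, Atoh1, Zic1 (1.24) and Neurod1 (0.66) rose, while Barhl1 (-0.58), Meis1 (-0.15) and Cntn2 (-0.81) fell. The fall of Meis1 is smaller than the shift of all genes between scalings (0.31 with RLE). Neuronal differentiation genes fell in 10 of 13 cases, among them Elavl4 (-2.12), a neuronal RNA-binding protein, and Snap25 (-1.49), of the synaptic fusion machinery. Nefm, a neurofilament subunit, rose by 2.36. Notch and HES genes divided 5 and 5, with a median of -0.13 that was above 0 with RLE (0.18) and DESeq2 (0.17). That split is near the 44.3% higher and 55.2% lower over all genes tested. Hes1, a Notch effector, rose by 2.64, and Dll3, a ligand that acts as an inhibitor, fell by 1.52 on the log2 scale.

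**Figure D2:**
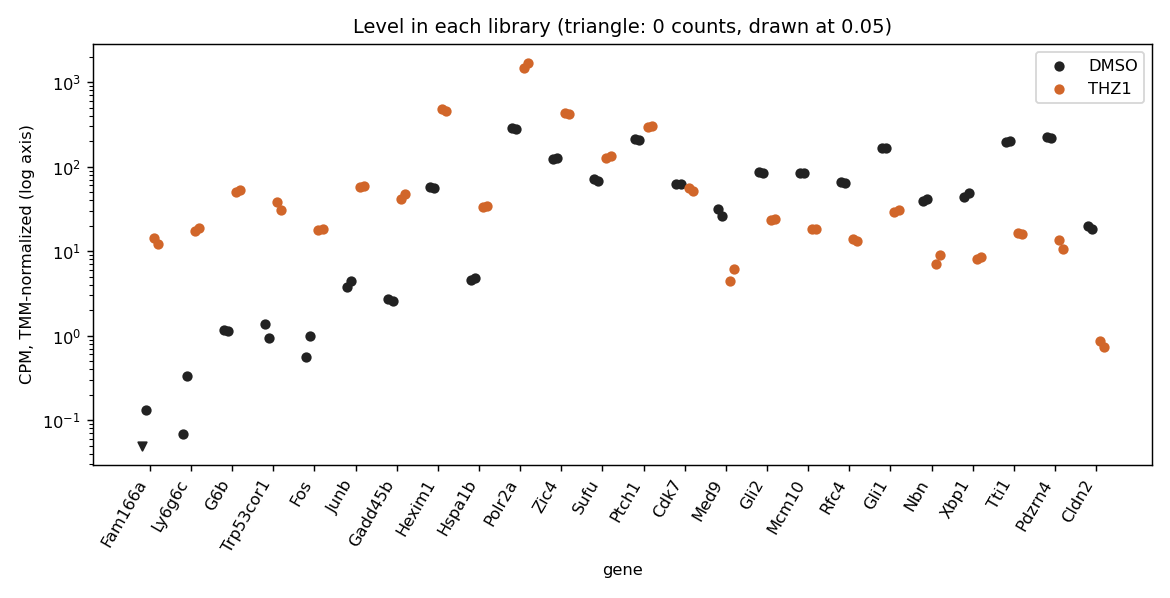
Points are the 4 libraries, with the TMM-normalized level in CPM on a log axis, for each named gene across. In Gli1 both THZ1 libraries (29.0 and 30.9) lie below both DMSO libraries (168 and 164), and in Hexim1 they lie above (483 and 458 against 57.7 and 55.7).

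Genes of DNA replication, mitosis and recombination fell nearly as whole lists. For comparison, 55.2% of all genes tested were called lower, 25.1% at least 2-fold (median -0.31). Among genes in all 3 tables these values were 64%, 26.7% and -0.48. Of 31 replication genes 29 fell, 16 of them at least 2-fold, 1 rose and 1 was not called, and the median was -1.01. Rfc4, of the clamp loader, was at 66.5 and 64.8 CPM with DMSO and at 13.8 and 13.1 CPM with THZ1, and Mcm10, which helps to fire origins, was at 84.5 and 84.8 CPM and at 18.1 and 18.4 CPM. Both genes were low in both THZ1 libraries (-2.29 ± 0.08 and -2.22 ± 0.08). Mcm7, of the replicative helicase, was the one that rose (0.35), and its sign turned with library sizes alone (-0.01) and on FPKM (-0.08). Of 29 mitosis genes 28 fell, with Knstrn, a spindle and kinetochore protein, at -2.33 and a median of -0.76. Foxm1, a transcription factor that drives mitotic genes, fell by 1.76 on the log2 scale. Aurka, the exception, rose by 0.37, but was lower on FPKM (-0.18) and not called with library sizes alone (0.01, edgeR adjusted p = 0.92). Of 24 recombination and Fanconi genes 23 fell, 14 of them at least 2-fold, with a median of -1.03. Rad50 and Nbn, partners in the MRN complex that senses double-strand breaks, fell by 2.41 and 2.33 on the log2 scale. Fance was the exception (0.50), and was not called with library sizes alone (0.14, adjusted p = 0.074) or on FPKM (0.04, adjusted p = 0.72).

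Cilium and centrosome genes, on which Hedgehog signalling depends in mouse, fell in 31 of 34 cases, 17 of them at least 2-fold, with a median of -1.04. Genes in all 3 tables were called lower in 64% of cases, 26.7% at least 2-fold (median -0.48). Rpgrip1l, of the transition zone, was at -2.14 and Ift81, of intraflagellar transport, at -2.03 on the log2 scale; the call of Rpgrip1l was lost on FPKM (-0.84, limma adjusted p = 0.13). Zfp genes, most of them zinc finger transcription factors, fell in 177 of 225 cases and rose in 47, with 1 not called and a median of -0.83. Zfp808 was among the lowest, at 4.23 and 5.48 CPM with DMSO and 0.382 and 0.531 CPM with THZ1. Many Zfp genes have near-identical copies, so the split of reads between them is uncertain.

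Genes linked to p53 and to cell death divided. Of 14 p53 targets 8 rose and 6 fell (median 0.86, but 0.11 on FPKM). The shares over all genes tested, beside which each list here is to be read, were 44.3% higher and 55.2% lower (median -0.31). Perp had the largest fall of these targets, -3.70, on few counts (29 and 32 with DMSO, 2 and 1 with THZ1). Gadd45b, a stress-induced growth arrest gene, rose by 4.07, and Bbc3, which encodes the BH3-only protein PUMA, rose by 2.42, while Btg2 fell by 1.29 on the log2 scale. Of 14 BCL2 family genes 6 rose and 8 fell, near the 44.3% higher and 55.2% lower over all genes tested. Bid, another BH3-only gene, fell by 3.0 on the log2 scale. Heat shock genes rose in 10 of 15 cases (median 0.63, but 0.03 on FPKM): the inducible chaperone Hspa1b rose by 2.86, while the constitutive Hspa8 was at 2163 and 2161 CPM with DMSO and at 649 and 633 CPM with THZ1 (-1.75 ± 0.05). Hspa1b has a near-identical neighbour, so its reads are uncertain. In the unfolded protein and integrated stress responses 9 of 15 rose, with a median of 0.55 that was -0.05 on FPKM. Ppp1r15a, which reverses eIF2α phosphorylation, rose by 2.09, and Xbp1, a transcription factor of the unfolded protein response, fell by 2.48 on the log2 scale.

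The machinery that reads and shapes mRNA divided gene by gene. Among SR proteins and CLK kinases 9 of 15 rose, 5 fell and 1 was not called, with a median of 0.47 that was -0.04 on FPKM. Tra2a rose by 1.43, and Srsf3 fell by 1.53 on the log2 scale. Of 16 cleavage and polyadenylation genes 7 rose and 9 fell, near the 44.3% higher and 55.2% lower over all genes tested. Pcf11, which joins cleavage to termination, rose by 1.64, and Cpsf2 fell by 2.03 on the log2 scale. Chromatin modifiers rose in 20 of 33 cases, with a median of 0.52 that was -0.02 on FPKM. Kmt2c, an H3K4 methyltransferase, and Hdac4, a histone deacetylase, rose by 2.01 and 2.24, while Ezh2, the Polycomb methyltransferase, and Dnmt3a fell by 1.29 and 1.41 on the log2 scale. Histone genes rose in 10 of 14 cases (median 0.84, but 0.15 on FPKM), with the linker histone Hist1h1c at 2.5 and the centromeric Cenpa at -1.16. Clock genes rose in 9 of 11 cases (median 1.19, but 0.57 on FPKM), with the repressors Cry1 at 1.74 and Bhlhe40 at 1.67. Of 14 nuclear noncoding RNAs and snoRNA hosts 10 rose (median 0.88, but 0.16 on FPKM), and Snhg5 was at -1.34.

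Cytosolic and mitochondrial ribosomal protein genes went opposite ways. The shares over all genes tested were 44.3% higher and 55.2% lower (median -0.31). Of 74 cytosolic ribosomal protein genes 72 rose, 7 of them at least 2-fold, with a median of 0.69 that was 0.33 with library sizes alone and 0.16 on FPKM. Rplp0 was at 983 and 1014 CPM with DMSO and at 2545 and 2203 CPM with THZ1, a rise of 1.25. Rps6 was the one called lower (-0.17), and was above 0 with RLE (0.14) and DESeq2 (0.13). It lost its call without DMSO replicate 1 (-0.11, edgeR adjusted p = 0.14). Of 58 mitochondrial ribosomal protein genes 52 fell, 24 of them at least 2-fold, with a median of -0.83, from Mrpl54 at -2.29 to Mrpl9 at 1.06. All 12 mRNAs encoded by the mitochondrial genome rose at least 2-fold (median 1.37, range 1.00 to 1.99, and a median of 0.88 on FPKM). Of the genes tested, 8045 (81.6%) had a fold below the median of 1.37. The largest of these rises, mt-Nd4l (1.99) and mt-Atp6 (1.93), rest on DMSO libraries that disagreed. With DMSO mt-Nd4l was at 2.5 and 6.75 CPM, and mt-Atp6 at 20.6 and 51.8 CPM. Mitochondrially encoded genes held 3.75% and 3.74% of counts with DMSO and 7.55% and 6.55% with THZ1. Nuclear genes of oxidative phosphorylation divided 28 and 26, with 1 not called, and their median of 0.33 turned negative with library sizes alone (-0.04) and on FPKM (-0.62), and Ndufs8, of complex I, fell by 1.14 on the log2 scale. Ribosomal protein genes have many processed copies, so their split of reads is uncertain.

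Metabolic and protein-turnover lists moved less evenly. Aminoacyl-tRNA synthetase genes fell in 27 of 34 cases, with a median of -0.74, among them Cars at -1.98. Lars2, the mitochondrial leucyl-tRNA synthetase, went the other way, from 267 and 254 CPM with DMSO to 5053 and 4975 CPM with THZ1 (4.27 ± 0.06, edgeR adjusted p = 1.3e-21, n = 2). Mars2, the mitochondrial methionyl enzyme, rose by 2.40. Beside Lars2, the gene model Gm26917 took 0.0174% and 0.0186% of counts with DMSO and 5.40% and 5.51% with THZ1; its part in the Lars2 value was not tested. Gm26917 was chosen after its values were seen. Sterol synthesis genes fell in 13 of 18 cases (median -0.55, Nsdhl at -2.57). That is near genes in all 3 tables, of which 64% were called lower (median -0.48), and is no result about sterol synthesis. Glycolysis and hypoxia genes rose in 11 of 14 cases (median 0.62, but 0.06 on FPKM), with Aldoc at 3.03 and Egln3 at 1.23. Proteasome genes rose in 10 of 26 cases and fell in 16, with a median of -0.32. Of 9 genes of survival and ubiquitin pathways 4 rose and 5 fell, also with a median of -0.32. Both lists were near all genes tested, of which 44.3% were called higher and 55.2% lower, with a median of -0.31.

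**Figure D3:**
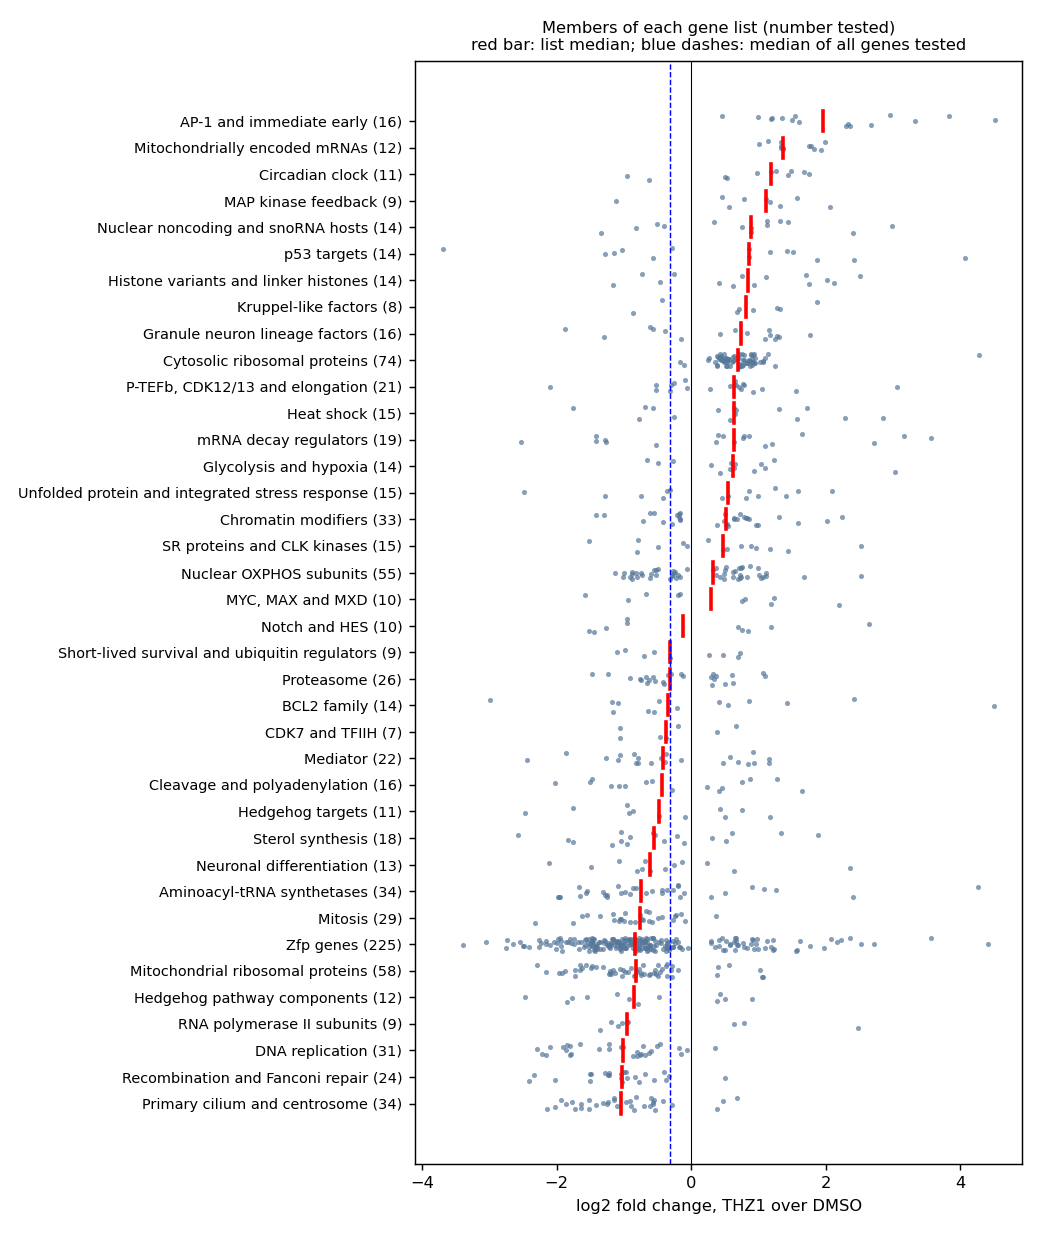
Each point is a tested member of a gene list, with its log2 fold change, THZ1 over DMSO, across; the red bar is the list median and the blue dashes are the median of all genes tested, -0.31. AP-1 and immediate early genes (median 1.95) lie to the right, and replication (-1.01), recombination (-1.03) and cilium genes (-1.04) to the left.

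The genes of largest fold were taken from those of at least 5 CPM on average whose groups did not overlap. A low DMSO level passed that limit where the THZ1 level was high, so the genes named for their rise could start low and those named for their fall could not. Fam166a had 2 counts over both DMSO libraries and 265 over both THZ1 libraries, a ratio of 196 with an exact 95% interval of 53.7 to 1625 that covers counting error only, and it was not called by limma on FPKM (0.13, adjusted p = 0.15), where the pseudocount of 1 shrinks low values. Ly6g6c was at 0.0694 and 0.334 CPM with DMSO and at 17.5 and 18.9 CPM with THZ1, and G6b, an inhibitory receptor of platelets, was at 1.18 and 1.14 CPM and at 50.6 and 52.7 CPM. These genes were near the floor with DMSO and clearly counted with THZ1. Trp53cor1, a noncoding RNA known as a p53 target, rose from 1.39 and 0.936 CPM to 38.5 and 31.0 CPM. Others were Fer1l4 (4.81), Mcmdc2 (4.66), Crip1 (4.63), Nrros (4.42), Large2 (4.41) and Slc10a1, a bile acid transporter of liver (4.39), beside Fos. All of the genes named here but Fos are only in this table of the series.

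Among the largest falls, Pdzrn4, a PDZ and RING domain protein, was at 225 and 219 CPM with DMSO and at 13.5 and 10.5 CPM with THZ1, an 18.4-fold fall (-4.20 ± 0.08, edgeR adjusted p = 3e-20, n = 2). Tti1, a partner of TELO2 in the assembly of PI3K-like kinases such as mTOR and ATM, was at 197 and 201 CPM with DMSO and at 16.4 and 15.8 CPM with THZ1, a 12.3-fold fall (-3.62 ± 0.07, edgeR adjusted p = 3.6e-20, n = 2). In both genes the THZ1 libraries lay far below the DMSO libraries. Cldn2, a tight junction claudin, fell by 4.56 on the log2 scale from 20.1 and 18.4 CPM. The others were Gnb1l (-4.10), Srrm4os (-3.96), Pdzrn3 (-3.88), Nadsyn1, the last enzyme of NAD synthesis (-3.74), Tab1, an activator of the kinase TAK1 (-3.64), Fgd3 (-3.61), Ccdc14 (-3.33), Pgf, a VEGF family growth factor (-3.24), and Serpinb8 (-3.22). Srrm4os is annotated as antisense, and without knowledge of strand its reads cannot be told apart from those of an overlapping partner.

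Genes found only in this table were mostly low with DMSO and higher with THZ1. Of 1630 such genes 1488 were tested, and their median DMSO level was 0.763 CPM, against 59.1 CPM for the genes in all 3 tables. All of those tested were called (100%, as the preselection sets it), 1301 higher (87.4%) and 187 lower (12.6%). At least 2-fold changes were called for 1291 higher (86.8%) and 176 lower (11.8%), and the median was 2.41. They held 0.23% and 0.236% of counts with DMSO and 0.678% and 0.666% with THZ1. Of those tested 676 were protein coding and 812 of other classes, and 850 were under 1 CPM with DMSO, where a gene had little room to fall. Lower genes of at least 5 CPM on average included Ebpl (-1.32), Pmepa1, an inhibitor of TGF-β signalling (-0.98), the giant muscle gene Ttn (-0.87) and Lrp4, a receptor of the neuromuscular junction (-0.83). Ttn and Lrp4 were not called with DESeq2 (adjusted p = 0.12 and 0.14), nor Ttn on FPKM (limma adjusted p = 0.91). Among the 7244 genes of all 3 tables the balance was the other way: 7195 were called (99.3%), 2560 higher (35.3%) and 4635 lower (64%), with a median of -0.48.

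Noncoding and unspliced classes of annotation shared in the rises. Protein-coding genes had a median of -0.43 (8509 tested), with 18.2% higher and 26.3% lower at least 2-fold. Processed pseudogenes had a median of 1.61 (231 tested), antisense genes 1.81 (228), lincRNAs 1.31 (202) and unconfirmed models of the TEC class 2.15 (396, of which 324 are only in this table). Of these, 121 processed pseudogenes, 141 antisense genes and 96 lincRNAs are also only in this table. Their median DMSO levels were 1.07 to 2.82 CPM, against 49.6 CPM for protein-coding genes, so class cannot be told apart from the preselection at low levels. Reads of pseudogenes cannot be told apart from those of their parents.

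Among coding genes in all 3 tables, single-exon genes had more rises and fewer falls than the rest, a description with no test. Their median was 0.58 (102 genes), with 35.3% higher and 16.7% lower at least 2-fold, against -0.49 over all 6927, with 10.9% and 26.7%. Genes of 2 exons had a median of -0.47, and the median was -0.58 at 6 to 10 exons and -0.35 above 20. Single-exon genes had a lower median DMSO level, 25.2 CPM. Between 10 and 50 CPM, 34% of 53 single-exon genes and 11% of 2603 others were higher at least 2-fold, while the medians were -0.24 and -0.73. They did not all rise: 56 were called higher and 45 lower, and all 7 protocadherin beta genes, which encode neuronal adhesion proteins, fell (median -1.43). The examples here were chosen after their values were seen. Ier5l, a relative of an immediate early gene, rose by 2.96. Zcchc3 was at 12.4 and 11.2 CPM with DMSO and 82.1 and 93.3 CPM with THZ1, and the centromere protein gene Cenpb at 288 and 288 CPM and 103 and 101 CPM. Mcts2 was among the lowest (-1.92), and as a copy of another gene its reads are uncertain.

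**Figure D4:**
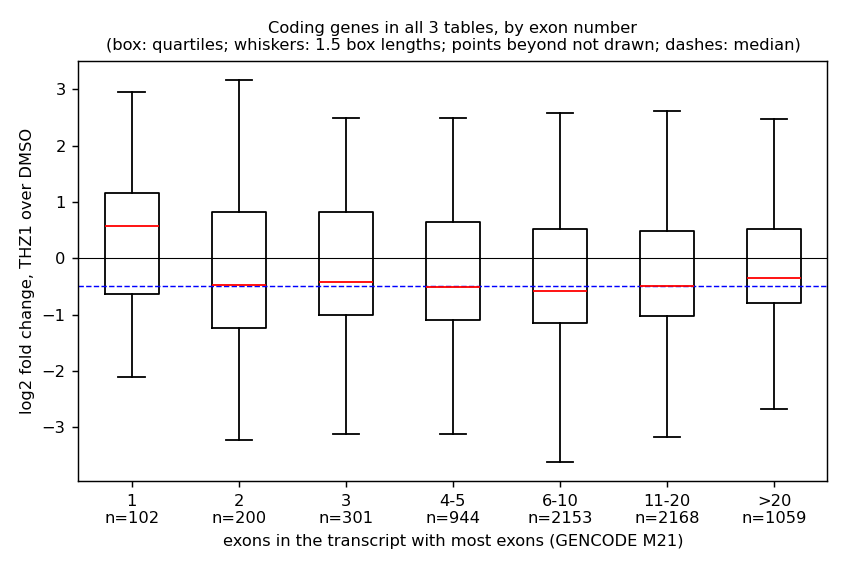
Boxes give the quartiles of the log2 fold change, THZ1 over DMSO, for coding genes in all 3 tables by exon number, with whiskers to 1.5 box lengths and dashes at the median. Single-exon genes (median 0.58) lie above the classes of 2 or more exons (-0.58 to -0.35).

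Longer genes had somewhat higher folds. Among coding genes in all 3 tables, in 5 bins by exonic length, the median was -0.57 in the shortest bin and -0.25 in the longest, with 31.2% and 15.9% lower at least 2-fold. The median DMSO levels of those bins were 41.9 and 94.6 CPM, and the part of level was not tested. By gene span the medians were -0.53 and -0.23. In 5 bins of all genes by relative length, taken from count over FPKM, the longest genes had a median of -0.17 and the shortest -0.30, a difference of 0.13 that was 0.11 in THZ1 replicate 1 and 0.15 in replicate 2. On FPKM the difference was 0.31.

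Lineage markers matched the label of granule-type medulloblastoma in part. Of the granule progenitor markers chosen, Atoh1, Zic1, Barhl1, Meis1 and Cntn2 were each at 174 CPM or more in all 4 libraries. Neurod1 was lower, at 16.4 and 15.2 CPM with DMSO and at 23.9 and 26.1 CPM with THZ1. The other markers chosen, Zic2 and Pax6, are not reported here. Markers of other cell types were few in the table: 2 of 6 for astrocytes, 4 of 6 for oligodendrocytes, 1 of 7 for microglia and leukocytes, and 0 of 5 endothelial and 0 of 6 fibroblast markers. Absence from this preselected table is not a level of 0. Gfap had 17 and 18 counts with DMSO and 110 and 101 with THZ1, Sox10 had 2 and 4 and then 30 and 37, and Cd68, a lysosomal protein of macrophages, 79 and 77 and then 846 and 761. Other markers went down: Slc1a3 had 668 and 703 counts with DMSO and 124 and 102 with THZ1, and Mbp 337 and 361 and then 129 and 128. Mog rose by 1.97, and Gfap was not called by limma on FPKM (0.19, adjusted p = 0.43). The part of other cell types in the results was not tested, and in bulk samples fewer cells of a type and less RNA per cell cannot be told apart.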

How the data were processed

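Per the labels' protocols, cells were lysed in Trizol, total RNA was purified with a mirVana kit and sequencing libraries followed the TruSeq RNA protocol. The authors deposited raw read counts per gene, per the file headers, beside FPKM values they had computed for the same libraries. The deposited table also gives, per gene, a log2 fold change by the authors (DMSO over THZ1) with its p-value, raw and adjusted. The authors' deposited table of the Sufu-depleted line further holds a mean signal and test scores per gene, not used here. Tools listed in the submitters' processing notes are DESeq2 1.20.0, Cufflinks 2.2.1 and STAR 2.5.3a, beside hg19, with no step given. That build is human while the gene IDs are mouse, so no coordinates were taken from the files. The strand setting of the counting is not stated by any header or label.

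The 4 libraries were fitted alone with edgeR 4.0.16 (R 4.3.3): TMM, filterByExpr (144 genes removed), quasi-likelihood F test, 2 residual degrees of freedom. The edgeR and DESeq2 tests were checked on simulated data in which few genes changed, equally in both directions. Nearly all genes of this table were called, so that check cannot vouch for the calls or the scaling here. Alternatives used limma 3.58.1 on log2(FPKM + 1), DESeq2 1.42.0, other scalings, no filter and left-out libraries. Own folds minus the authors' deposited folds, sign turned, had a median of 0.1. Of 20 gene names turned into dates or left blank, 14 were found by gene ID. Exon numbers and classes come from GENCODE M21 (99.8% of genes) and upstream sequences from RefSeq. Promoters were found for 72.6% of tested genes, under the 80% needed. Among coding genes in all 3 tables they were found for 81.8%, but for 79.5% of those called higher at least 2-fold. Motif shares were computed for such groups but are not reported here.

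Members and lists were chosen with earlier results of these data known. Named were 11 fixed genes, the 12 largest rises and 12 largest falls at a mean of at least 5 CPM without overlap, up to 8 and 8 among genes only in this table, and list members of largest change. Some list members of largest change but few counts were passed over as examples. Some genes that the rule names are not reported here.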

Additional observations from a re-analysis of the deposited data

How the results depend on the processing

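The median of all genes moved by -0.36 (library size), 0.31 (RLE), 0.32 (DESeq2) and -0.34 (FPKM with its pseudocount), and directions of small changes moved with it. Genes called lower at least 2-fold numbered 3733 with library sizes alone, 1587 with RLE and 1596 with DESeq2. On FPKM 2539 genes were called higher and 461 at least 2-fold, and the length difference was 0.31. Calls in all numbered 8446 with DESeq2 and 8246 on FPKM. Signs turned for Mcm7 (-0.01 library size, -0.08 FPKM), Cdk7 (0.10 RLE, 0.10 DESeq2), Rps6 (0.14 RLE, 0.13 DESeq2), Ptch1 (-0.37 FPKM) and Aurka (-0.18 FPKM). The scaling differs by construction, on FPKM the pseudocount does too, and no other cause was tested. Of 1309 values for the named genes under the alternatives, 1289 kept direction and call, 12 lost the call and 8 changed sign. Leaving out 1 library gave 4332 to 4474 genes higher and 5358 to 5407 lower. Same-numbered libraries did not deviate together (correlation 0.009), and the main fit used no pairing. That correlation runs over preselected genes of small spread and cannot show whether same-numbered libraries shared a culture or a day. A fit with the replicate block called 4373 genes higher and 5447 lower. With 2 libraries a group the spread is poorly known, and low counts limit genes near the floor.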
